A study of Mus musculus with 20 samples.

Results

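The positions described here were listed as N6-methyladenosine (m6A) on chromatin-associated RNA in both Mettl3-KO conditions and in neither wild-type condition. Whether the adenosines at these positions are methylated was not tested. They were chosen by their presence on the deposited lists. A pair of gene and position, matched exactly and counted once, had to stand on the ESC KO and the CM KO list and be absent from the ESC WT and the CM WT list. That gave 713 members in 577 genes, out of 42515 positions in 8326 genes on any of the 4 lists, a share of 1.68%. The rule used presence and absence on all 4 lists, so these numbers describe the choice and were not tested.

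The cells were C57BL/6 mouse embryonic stem cells (ESCs) and cultures of cardiomyocytes (CM) grown from such ESCs through embryoid bodies in serum medium with ascorbic acid. Each cell type was wild type (WT) or Mettl3-KO, and the labels give no allele, clone number or age of culture. m6A sequencing of chromatin RNA (1 sample for each of the 4 groups, with a Millipore and a Synaptic Systems m6A antibody) and sequencing of chromatin RNA itself (1 library a group) were not replicated, so no p-value is given for them and no difference between their groups could be checked on a second sample. ATAC-seq, which maps open chromatin by transposase insertion, had 3 libraries a group. For ESCs the WT and KO lists held 16983 and 18076 positions, and for CM 25617 and 13962, and the chromatin RNA libraries held an estimated 27900000 to 29800000 reads.

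The KO labels were not checked by Mettl3 RNA. Mettl3 RNA, in RPKM (reads scaled to gene length and library depth), was 1.73 and 1.28 in WT and KO ESCs and 1.18 and 1.07 in WT and KO CM, and a value over the whole gene does not show whether a deleted stretch was covered. The cardiomyocyte markers of the CM KO library were far below those of CM WT. Summed over Ttn, Actc1, Myh6, Tnnt2 and Nkx2-5, cardiomyocyte markers came to 6.18 RPKM in WT and 0.407 in KO cultures, against 0.657 and 0.494 in WT and KO ESCs. Ttn made up most of the ESC sums, and the other 4 markers were low in CM KO, at 0.0322 to 0.103 RPKM, but above both ESC libraries. In CM KO against CM WT, 3 fibroblast markers summed to 6.55 against 23.5 RPKM, 3 endoderm markers to 5.10 against 13.3, 2 embryonic globins to 39.1 against 22.5 and 4 ESC markers to 9.98 against 6.43. The 2 CM cultures thus differed in their markers, and the part of this in each result below that compares them was not tested.

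m6A is laid down on nascent RNA by a complex whose catalytic subunit is METTL3, with METTL14 as its partner, mostly at a short consensus of purines followed by A, C and a base other than G. Readers of the YTH family and the IGF2BP proteins bind the mark, and FTO and ALKBH5 remove it. On mRNA the mark is known to gather near stop codons and in long last exons, and on chromatin RNA it is known to bear on the decay of regulatory transcripts and on the chromatin around them. Antibody enrichment followed by peak calling places the mark within a stretch of RNA, and assigning it to a single base needs a further step.

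Each list entry is an Ensembl gene, a position counted from the gene's first base and the 4-base motif that starts there, with the candidate adenosine just before the final C. The lists give neither a height nor a score. The 5 members below are shown because theirs were the only surroundings that could be read and matched. They were not picked by their values. Of 713 members, 14 fell in a promoter or other sequence window of RefSeq (GRCm38.p6), and 5 of those had the deposited motif at the stated place, counted from a gene start of RefSeq's promoter table. For Rpl19 and Emc4 that start lies inside the longer gene span of RefSeq. Capitals mark the deposited motif.
Trh, position 31, chr6:92244603-92244632, minus strand: tctggagccttgcAGACtctacccagccag
Rpl19, position 178, chr11:98026875-98026904, plus strand: gtagcgtaaatacAGACaatcatggagtgg
Acin1, position 36416, chr14:54650499-54650528, minus strand: ccttgtttgctacAGACtgttgggatcccc
Mrpl43, position 976, chr19:45005450-45005479, minus strand: aacacttgtacaaGGACcgtgttttctgaa
Emc4, position 23, chr2:112367988-112368017, minus strand: agtgcactgcggcGAACgcgaggaagtcgg
In 4 of the 5 the base after the motif was A, C or T, and in Emc4, which encodes a subunit of the endoplasmic reticulum membrane complex, it was G. Rpl19 encodes a protein of the large ribosomal subunit, Acin1 a nuclear RNA-binding protein, Mrpl43 a protein of the mitochondrial ribosome and Trh thyrotropin-releasing hormone.

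Most members were close neighbours of a WT-listed position. The nearest position of the same gene on either WT list lay within 10 bases for 78 members, within 50 bases for 332 (46.6%, 95% Clopper-Pearson interval 42.9 to 50.3) and within 200 bases for 548 (76.9%, 73.6 to 79.9). The median distance was 58 bases, with genes that hold no WT position counted as farthest, and the smallest was 4. The intervals here and below cover counting error only. Within a single list, 2.19% to 3.09% of positions had another position of the same list within 50 bases, and 23.2% to 25.8% within 200 bases. That spacing covers all genes of a single list. The members were set against both WT lists together and lay in densely listed genes, so these shares are not like for like. Of the 548 neighbours, 431 were themselves on neither KO list, so that a WT-listed position and a KO-listed position stood side by side in the same stretch of RNA. Each member is on both KO lists by the rule. Only 2.57% of ESC KO and 3.02% of CM KO positions had another of the same list within 50 bases. The count of 431 thus follows in part from the choice and the spacing, and nothing is read from it. The neighbour lay downstream of the member in 303 cases and upstream in 245, and 293 of the neighbours were on both WT lists.

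**Figure D1:**
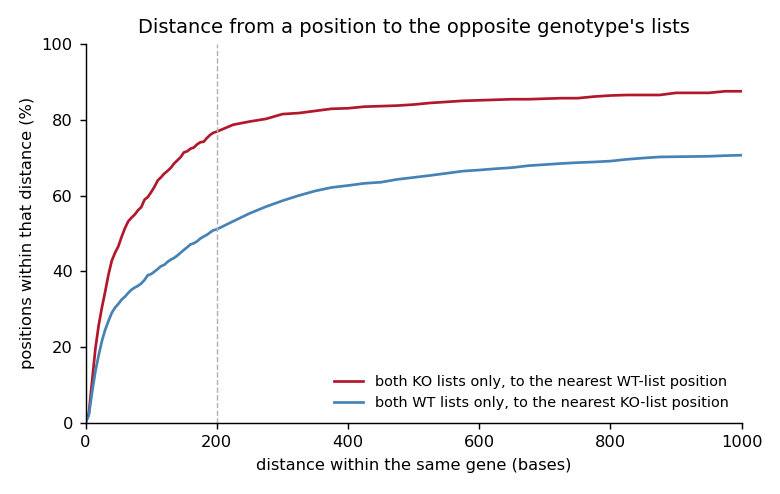
Share of positions (vertical axis, %) whose nearest position of the same gene on either list of the opposite genotype lay within the distance on the horizontal axis (bases). The red line is the 713 positions on both KO lists only, which reach 76.9% at the dashed line of 200 bases, and the blue line the 1737 positions on both WT lists only, which reach 51.1%.

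The counterpart of the members, positions on both WT lists only, was larger and had a longer median distance, of 189 bases, to the other genotype's lists. There were 1737 such positions, 4.09% of all listed positions. Of these, 31.4% (29.2 to 33.6) lay within 50 bases and 51.1% (48.7 to 53.4) within 200 bases of a KO-listed position of the same gene. The 2 KO lists together held 25096 positions to be near to and the 2 WT lists 33607, and the part of this in the difference was not tested. Seen from the shared lists, 6942 positions were on both KO lists and 10.3% of them were members, while 8993 were on both WT lists and 19.3% of them were absent from both KO lists.

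Beyond 200 bases from any WT-listed position there were 165 members, in 142 genes. Kcnq1ot1 held 11 of them. Setd5, a SET-domain protein, and Prrc2c, a stress granule protein, held 3 each, and they are named here after their values were seen. Setd5 had members at positions 5923, 28909 and 49965, each with the motif AAAC and each between 596 and 3070 bases from the nearest WT position. Both members of Npm1, the nucleolar protein nucleophosmin, also stood apart, 1299 and 1479 bases away.

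Only 11 members lay in genes with no position on either WT list, each with a single member. The genes were Brf2, Emc4, Gm25572, Gm42756, Hist4h4, Hnrnpu, Ndufb8, Nkap, Phf5a, Rabgap1 and Tent2. Of these 11 members, 7 lay within the first 100 bases of the gene. One of them, in the short gene Gm25572 at position 79, was at 0.46 of the gene's length. The share within the first 100 bases was not counted for all members or all listed positions, so nothing is read from this count. The first kilobase held 5.05% of all members. Phf5a encodes a spliceosome component and its member was at position 53, with chromatin RNA of 3.02 and 3.24 RPKM in WT and KO ESCs and of 1.76 and 2.09 RPKM in WT and KO CM. Tent2, a cytoplasmic poly(A) polymerase, carried 4 positions in ESC KO and 2 in CM KO, at 2.35, 2.12, 2.26 and 2.73 RPKM in the same order. Hnrnpu, an RNA-binding protein gene that cells use in general, was listed near 0 in the RPKM tables, which is not read as a level of its RNA, and Gm25572 and Gm42756 were in no chromatin RNA file.

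The motifs of the members were spread almost evenly over the 4 forms that the lists hold. GGAC, the form most often reported as methylated, made up 194 members (27.2%, 24.0 to 30.6), AGAC 182 (25.5%), AAAC 180 (25.2%) and GAAC 157 (22.02%). Among the 4315 positions on all 4 lists, GGAC made up 35.7% (34.3 to 37.1) and AAAC 16.1% (15.0 to 17.2). Among positions on both WT lists only, GGAC made up 35.5% (33.3 to 37.8) and AAAC 17.6% (15.8 to 19.4). The members' intervals did not overlap those of either set. They did overlap those of positions on the CM KO list alone, where GGAC made up 27.7%, and of positions on the ESC WT list alone, where it also made up 27.7%. Over all patterns of presence on the lists, the GGAC share ran from 22.9% (ESC KO list alone) to 35.7% (all 4 lists). It was 24.2% on both ESC lists only and 32.4% on the CM WT list alone. The sets compared first thus stood at the upper end, and the members lay between the extremes.

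**Figure D2:**
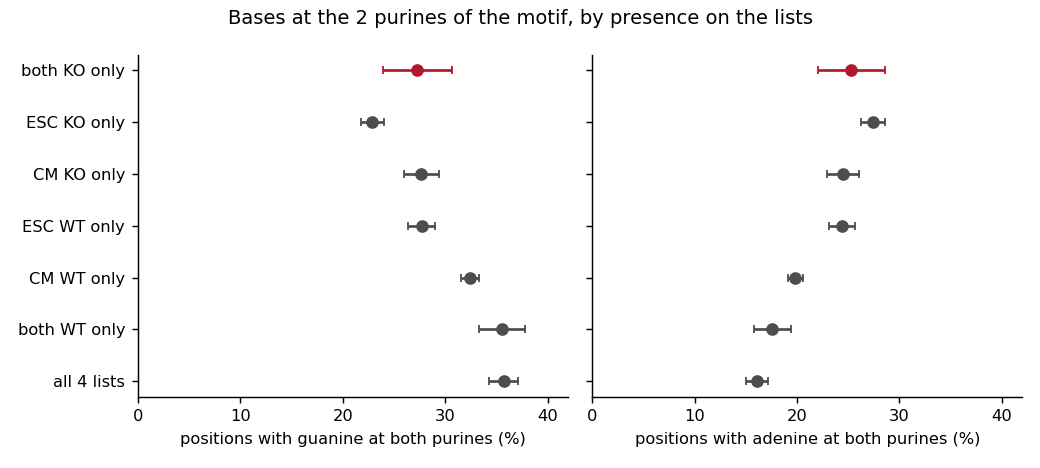
Share of positions (horizontal axes, %) whose deposited motif has guanine (left) or adenine (right) at both of its 2 purines, that is, GGAC or AAAC, for 7 patterns of presence on the lists; points are shares and bars are 95% Clopper-Pearson intervals. The members, in red, stand at 27.2% and 25.2%, and the positions on all 4 lists at 35.7% and 16.1%.

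The motif shares of members near and far from a WT position had overlapping intervals. GGAC made up 151 of the 548 members within 200 bases (27.6%, 23.9 to 31.5) and 43 of the 165 beyond (26.1%, 19.5 to 33.5). AAAC made up 129 of 548 (23.5%, 20.0 to 27.3) and 51 of 165 (30.9%, 24.0 to 38.6). The WT-listed neighbours of the 548 were GGAC in 152 cases (27.7%), so that members and neighbours had nearly the same share. Member and neighbour had the same motif in 145 of 548 pairs (26.5%). In 107 pairs the WT neighbour was GGAC and the member another form, and in 106 pairs it was the other way round.

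Along the gene, members lay mostly in the second part, as did the listed positions set beside them. Gene lengths were taken from RefSeq, which could be used for 672 members and may span more than the gene models behind the lists. The median relative position of members was 0.71 of the gene, where 0 is the first base and 1 the last. It was 0.70 for positions on all 4 lists and 0.83 for positions on both WT lists only. The last 10% of the gene held 193 of the 672 (28.7%, 25.3 to 32.3), against 30.5% (29.1 to 31.9) of positions on all 4 lists and 40.6% (38.2 to 43.0) of positions on both WT lists only. The first kilobase held 36 of 713 members (5.05%), 5.07% of positions on both WT lists only and 12.4% of positions on all 4 lists. By RefSeq class, 666 members lay in protein-coding genes and 18 in lncRNAs.

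Member genes were densely listed and had more chromatin RNA than genes with a listed position in general. They held a median of 11 positions on any list, against 3 for all 8326 genes. In 566 of the 577 genes at least 1 other position was on a WT list, and 369 also held a position on all 4 lists. The median level of 575 member genes, in WT and KO ESCs and then in WT and KO CM, was 1.83, 1.75, 1.43 and 1.63 RPKM, against 0.913, 0.801, 0.847 and 0.914 RPKM for the 8308 listed genes with any position. The share of genes with a member was 1.57% (0.965 to 2.42) below a mean of 0.3 RPKM, 3.74% (3.12 to 4.44) from 0.3 to 1 RPKM, 9.97% (8.92 to 11.1) from 1 to 3 RPKM and 18.7% (15.6 to 22.1) from 3 to 10 RPKM. It was 16.3% (10.6 to 23.5) above 10 RPKM. Read depth over a gene moves with its RNA, and its part in this order was not tested.

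Kcnq1ot1 held 16 members, more than any other gene, and 480 of the 577 genes held a single one. Kcnq1ot1 is an imprinted lncRNA, transcribed from the paternal allele antisense to Kcnq1, that is known to silence neighbouring genes in cis. It lies on the minus strand at chr7:143213111-143296547 (GRCm38.p6, the assembly behind mm10) and overlaps Kcnq1, and since no source states whether reads were counted by strand, reads of the 2 genes cannot be told apart. Its 16 members ran from position 2243 to position 56433, and 6 of them were GGAC, 6 AAAC, 3 AGAC and 1 GAAC. The gene held 11 and 70 positions on the WT and KO lists of ESCs and 51 and 77 on those of CM. As a share of each list this was 0.0648% (0.0323 to 0.116), 0.387% (0.302 to 0.489), 0.199% (0.148 to 0.262) and 0.551% (0.435 to 0.689). The gene is described for its number of members, which adds to both KO lists and to neither WT list, so the order of KO and WT in these counts follows in part from the choice and nothing is read from it.

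**Figure D3:**
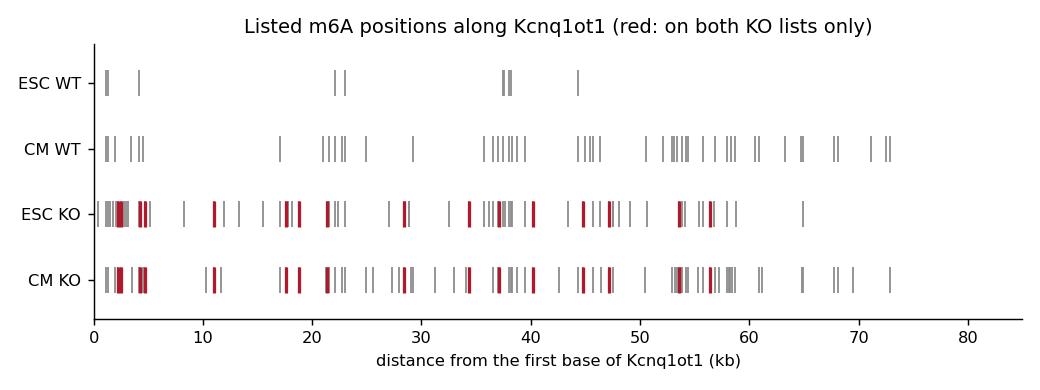
Positions listed along Kcnq1ot1 in each of the 4 m6A lists (rows); the horizontal axis is the distance from the gene's first base in kb. Each tick is 1 listed position and the 16 members are in red on both KO rows, where the lists hold 70 and 77 positions against 11 and 51 on the WT rows.

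The chromatin RNA of Kcnq1ot1 was higher in both KO libraries. It stood at 3.84 and 8.43 RPKM in WT and KO ESCs and at 4.88 and 11.0 RPKM in WT and KO CM. The ratio of KO to WT was 2.19 (2.14 to 2.25) in ESCs and 2.26 (2.21 to 2.31) in CM, where these intervals come from estimated reads, cover counting error only and compare 2 libraries. The list of chromatin-associated lncRNAs held 15 genes with a position, and besides Kcnq1ot1 only Malat1, an abundant RNA of nuclear speckles, had a member, at position 2361.

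Zfp292, a zinc finger transcription factor, had 6 members, of which 5 lay between positions 73609 and 77765, each within 101 bases of a WT position, and 1 at position 6294. It held 31 and 50 positions on the WT and KO lists of ESCs and 38 and 36 on those of CM. Jmjd1c, a JmjC-domain protein of the H3K9 demethylase family, had 4 members, between 28 and 61 bases from a WT position. Rif1, a regulator of replication timing and of DNA break repair, also had 4. Aff4 (a scaffold of the super elongation complex), Ahctf1 (a nucleoporin), Ankrd17 (an ankyrin-repeat protein), Aspm (a spindle pole protein), Ddx17 (an RNA helicase) and a gene with no symbol (ENSMUSG00000101716) had 3 each, as did 11 further genes.

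The list of chromatin regulators and the m6A readers held members in 33.3% of their genes with a position, against 6.93% of all genes with a position. The lists were not tested, and their genes may have more RNA or more positions than others. Of 33 chromatin regulators with a position, 11 had a member, among them Atrx, a remodeler of repeats and heterochromatin, and the histone methyltransferase Kmt2b with 2 each, and Asxl1 with 1. The Zfp zinc finger genes had a member in 27 of 273 genes (9.89%), among them Zfp292 with 6, Zfp638 with 3, and Zfp217 and Zfp280b with 2 each, and solute carriers in 12 of 139 (8.63%), among them Slc12a2, Slc38a1 and Slc39a10 with 2 each and Slc19a2 with 1. Genes named only by a Gm or Rik number had one in 26 of 422 (6.16%), among them Gm38393 and Gm47283 with 3 each and 2610507B11Rik and 4930503L19Rik with 2 each. Of 28 pluripotency genes, 4 had a member: Tet1, Tet2, Esrrb and Nanog. Among 17 fibroblast matrix genes, Fn1 and Col1a2 had one. Ribosomal protein genes had 1 in 60 (Rpl19) and histone genes 1 in 30 (Hist4h4). No member lay in the genes with a position of the lists of cardiac transcription factors (9 genes), sarcomere genes (9), endoderm genes (8), blood and endothelial genes (11), neural genes (2), immediate early genes (13), snoRNA hosts (10) and miRNA genes (4). At a general share of 6.93%, lists this short do not let a count of 0 stand apart. A member also had to be listed in both cell types, while Actc1, Tnnt2, Nkx2-5, Afp and Ttr had 0 RPKM in ESC KO. Nothing is read from these counts. The lists of small nuclear and nucleolar RNAs and of mitochondrial genes held no gene with a position.

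Among genes of the m6A pathway, 4 readers and 1 further methyltransferase held a member. Ythdc1, the nuclear YTH reader, had a member 5 bases from a position of the ESC WT list. Ythdf2, a cytoplasmic reader that promotes decay, had one 143 bases from a WT position, and Ythdf3, a further cytoplasmic reader, one 167 bases away. Igf2bp1, which is known to stabilise its targets, had one at the gene's first base, 34 bases from a WT position. Of 12 reader genes with a position these 4 had a member, and 0 of 5 genes of the writer complex and 0 of 2 erasers had one. With 6.93% of all genes with a position holding a member, lists of 5 and 2 genes are too short for a count of 0 to stand apart. Mettl4, a methyltransferase outside that complex, had 1 member, 9 bases from a WT position.

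The chromatin RNA of these genes was within 2-fold between KO and WT in both cell types. In WT and KO ESCs and then in WT and KO CM, Ythdc1 stood at 1.94, 1.86, 1.50 and 2.03 RPKM. Ythdf2 stood at 2.89, 2.35, 2.32 and 2.44 RPKM in the same order. For Ythdf3 the values were 5.67, 5.46, 5.22 and 6.81 RPKM. All 3 were somewhat lower in ESC KO than in ESC WT and higher in CM KO than in CM WT, and for Ythdc1 and Ythdf3 the ESC direction turned when libraries were scaled to equal medians. Igf2bp1 had 5.10, 4.96, 4.12 and 5.23 RPKM, and Mettl4 1.16, 1.05, 0.389 and 0.563 RPKM. Over all 13 listed readers, 10 passed the filter of 1 RPKM in either library in ESCs and 5 of them had a positive log2 ratio, with a range of -0.35 to 0.31. In CM 12 passed, 9 of them positive, with a range of -0.04 to 0.33. No gene of the writer, other methyltransferase, reader or eraser lists was past 2-fold in either cell type.

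In ESCs, member genes had slightly less chromatin RNA in KO than in WT, as genes in general did. Of the 577 genes, 436 passed 1 RPKM in either ESC library. Their median log2((KO + 1)/(WT + 1)) was -0.06 (-0.08 to -0.05 from order statistics over genes, which are not replicates), with median levels of 2.39 RPKM in WT and 2.19 in KO, and 154 of the 436 were positive. The median over all 5240 genes that passed was -0.09. Scaling the libraries to equal medians moved the median of all genes by 0.13, to 0.04, and that of the member genes to 0.07, so the sign is set by the scaling. Relative to all genes the members stood 0.03 higher as deposited and 0.04 higher after scaling. How far this follows from the choice of members by the KO and WT lists was not tested, and nothing is read from it. On this measure, with 1 RPKM added to both values, 1 of the 436 was at least 2-fold higher and 0 were at least 2-fold lower. Over all genes the shares were 1.49% and 0.649%. Plain RPKM ratios of some named genes did go past 2-fold in ESCs. They were lower in Gja1 (0.443), Noct (0.480) and Arxes1 (0.484) and higher in Kcnq1ot1 (2.19) and Fut9 (2.03). Among the 3996 genes with a listed position that passed, 10 and 4 were past those folds with 1 RPKM added, shares close to those of the members.

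In CM, member genes had more chromatin RNA in KO than in WT, again with genes in general. Of 452 genes that passed, 370 were positive, and the median log2 ratio was 0.18 (0.15 to 0.20), with median levels of 1.78 RPKM in WT and 2.04 in KO. The median over all 5170 genes was 0.13, so the members stood 0.05 higher. Members had to be on both KO lists and on neither WT list, and the share of genes with a member differed with RNA level. How far the members' difference from all genes follows from this choice was not tested, and nothing is read from it. With 1 RPKM added to both values, 3 of the 452 were at least 2-fold higher and 1 was at least 2-fold lower, against 2.11% and 1.37% of all genes. Among genes with a listed position the shares were 0.489% and 0.661%, and among the members 0.664% and 0.221%. Genes with positions on all 4 lists and no member had medians of -0.09 in ESCs and 0.14 in CM. Genes with a position on both WT lists only and no member had medians of -0.12 and 0.12. The 118 genes with a member beyond 200 bases that passed in ESCs had a median of -0.01, and the 123 that passed in CM had 0.20.

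**Figure D4:**
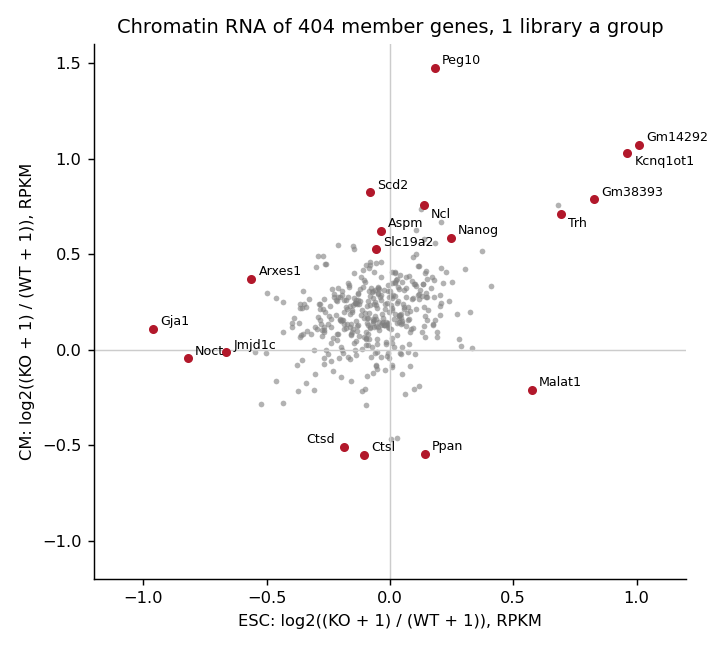
Chromatin RNA ratio of KO to WT in ESCs (horizontal) and in CM (vertical), both as log2((KO + 1)/(WT + 1)) of RPKM with 1 library a group, for the 404 member genes at or above 1 RPKM in either library of each cell type. Red points are genes named in the text whose ratio in ESCs or in CM was far from the centre, and the other named genes are grey. Kcnq1ot1 stands at 0.96 and 1.03 and Gja1 at -0.96 and 0.11, while most genes lie near the centre.

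Some member genes stood higher in both KO libraries. Gm14292 was not listed in either WT library and had 1.01 RPKM in ESC KO and 1.10 in CM KO. It held 1 position on each m6A list, those of both WT groups included, so its missing WT values are not read as an absence of its RNA. Its member was 6 bases from a position of the CM WT list. Gm38393, in WT and KO ESCs and then in WT and KO CM, had 6.66, 12.6, 3.90 and 7.46 RPKM, and it held 3 positions on the ESC WT list, 27 on ESC KO, 1 on CM WT and 7 on CM KO. Gm38393 was named by its ratios and chosen by its members, so these values are given side by side as a description. Trh had 5.30, 9.19, 6.83 and 11.8 RPKM in the same order, with a ratio of 1.73 (1.53 to 1.97) in ESCs and 1.73 (1.55 to 1.93) in CM. Fut9, which makes the stem cell surface sugar SSEA-1, had 1.65 and 3.35 RPKM in WT and KO ESCs and 0.363 and 0.684 RPKM in WT and KO CM.

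The lowest ESC ratios were not repeated in CM. Gja1, the gap junction protein connexin 43, had 6.87 RPKM in ESC WT and 3.04 in ESC KO, a ratio of 0.443 (0.413 to 0.476), and 7.40 and 8.07 in CM WT and CM KO. Noct, the deadenylase-like protein nocturnin, had 4.998 and 2.40 RPKM in ESCs and 1.39 and 1.31 in CM. Jmjd1c had 7.51 and 4.37 RPKM in ESCs and 3.07 and 3.03 in CM. Zfp809, which is known to direct silencing of retroviruses in stem cells, had 2.40 and 1.31 RPKM in ESCs and 0.984 and 0.912 in CM. Arxes1 had 1.67 and 0.811 RPKM in ESCs and 0.710 and 1.21 in CM, on few reads. These 5 ratios stayed below 1 in ESCs when libraries were scaled to equal medians. Whether the ratios differ between cell types was not tested.

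In CM the highest log2((KO + 1)/(WT + 1)) belonged to Peg10, an imprinted gene of retrotransposon origin, at 1.48. It had 3.28 and 3.86 RPKM in WT and KO ESCs and 20.6 and 59.0 RPKM in WT and KO CM, and the CM ratio was 2.87 (2.80 to 2.94). Its 2 members lay 36 and 39 bases from WT positions. Scd2, a fatty acid desaturase, had 13.3 RPKM in CM WT and 24.3 in CM KO. The lowest, -1.16, belonged to Col1a2, a fibrillar collagen chain, with 3.77 and 1.14 RPKM (ratio 0.303, 0.284 to 0.323), beside the lower sum of the 3 fibroblast markers given above. The lysosomal proteases Ctsl, with 13.5 and 8.91 RPKM, and Ctsd, with 4.25 and 2.69 RPKM, were also lower in CM KO, as was Ddx39b, an RNA helicase of mRNA export, with 31.7 and 22.6 RPKM.

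The 10 member genes with the most RNA were led by Malat1, Gnl3, Ppan and Ncl. Malat1, in WT and KO ESCs and then in WT and KO CM, had 425, 634, 647 and 559 RPKM. Gnl3, the nucleolar protein nucleostemin, had 192, 186, 102 and 125 RPKM in the same order, and its member was at position 62. Ncl, which encodes nucleolin, had 129, 142, 59.2 and 101 RPKM. Ppan, a ribosome assembly factor, had 177, 195, 108 and 73.7 RPKM, so it was higher in ESC KO and lower in CM KO. Eef2, Eif4g2, Ddx39b, Gm47283, Sfpq and Peg10 completed the 10. Gnl3, Ncl and Eef2 host small nucleolar RNAs that RefSeq places within them, and reads of host and guest cannot be told apart here. Other RefSeq genes also overlap Malat1 (Mascrna), Ppan, Eif4g2, Ddx39b and Sfpq, and the same limit holds for them.

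The pluripotency genes with a member kept RNA in ESC KO. Nanog, again in that order of libraries, had 5.89, 7.17, 0.842 and 1.76 RPKM, and Esrrb 1.48, 1.76, 0.205 and 0.448 RPKM. Tet1, a methylcytosine dioxygenase, had 11.8, 8.72, 1.45 and 1.70 RPKM, and Tet2 5.42, 4.08, 0.944 and 1.08. Nanog and Esrrb were thus higher and the TET genes lower in ESC KO than in ESC WT, and all 4 were higher in CM KO than in CM WT. In CM, log2((KO + 1)/(WT + 1)) was 0.585 for Nanog, 0.138 for Tet1 and 0.0967 for Tet2. The median over all genes that passed was 0.127, so the TET genes stood near the genes in general. Esrrb was below 1 RPKM in both CM libraries. Of the 4 ESC markers, Nanog, Zfp42 and Tdgf1 were also higher in CM KO than in CM WT, and Pou5f1 was not (1.32 against 1.34 RPKM). The member of Nanog was 33 bases from a position of the ESC WT list and that of Esrrb 17 bases.

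ATAC-seq, which the rule did not use, allowed a test over libraries. The measure was the share of a library's called intervals that overlap a member gene by at least 1 bp, for 559 genes with a RefSeq place covering 36.9 Mb. In ESCs the share was 2.89%, 2.85% and 2.86% in the WT libraries and 2.90%, 2.90% and 2.90% in the KO libraries. The groups did not overlap, and the difference of 0.0302 percentage points (2.87% ± 0.0228 SD, n = 3, against 2.90% ± 0.00162, n = 3) gave p = 0.1 in a two-sided exact permutation test, the smallest p that 3 against 3 allows. The ESC difference was 0.0703 percentage points with an equal number of intervals from each library and 0.0198 without ESC WT replicate 2, and counting only intervals at least 50% inside a gene gave 0.0351 with an exact permutation p of 0.3. In CM the share was 2.74%, 2.67% and 2.74% in WT and 2.96%, 2.96% and 2.96% in KO. Again the groups did not overlap, with a difference of 0.243 percentage points (2.72% ± 0.0361 SD, n = 3, against 2.96% ± 0.00397, n = 3; exact permutation p = 0.1). The labels do not say whether libraries came from separate cultures, so these p-values measure the spread between libraries, which may be technical.

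**Figure D5:**
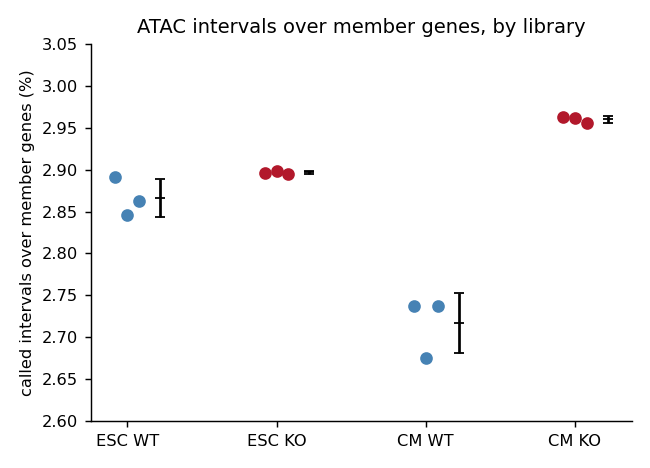
Share of each ATAC library's called intervals that overlap a member gene (vertical axis, %, starting above 0), by group; points are libraries and the black mark is the mean ± SD of 3. The 3 CM KO libraries lie at 2.96% and the 3 CM WT libraries between 2.67% and 2.74%.

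The number of intervals and the share moved in opposite directions in CM. CM KO libraries had 73177 ± 3128 intervals (SD, n = 3) and CM WT libraries 88791 ± 5064, and over member genes there were 2166 ± 92.3 against 2411 ± 105. The share was thus higher in CM KO while the number of intervals over member genes was lower. With an equal number of 70132 intervals from each library the difference in CM was 0.183 percentage points. Genes with any listed position moved the same way in CM, from 33.2% ± 0.127 to 33.6% ± 0.192 (SD, n = 3 each), and the opposite way in ESCs, from 32.5% ± 0.200 to 32.3% ± 0.0624. The KO effect on the members' share was 0.213 percentage points larger in CM than in ESCs, with p = 0.1 when genotype labels were permuted within cell types (exact, 400 arrangements, smallest p 0.005).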

How the data were processed

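The lists of m6A positions, the chromatin RNA tables and the ATAC peak lists were used as deposited. The members and the gene lists were chosen with earlier results of these data known. Per the submitters' processing notes, cutadapt, Bowtie, Picard, MACS2 and HISAT2 were used with the build mm10, with no role or version given. How m6A positions were assigned to bases is not stated in the sources used here. The deposited RPKM values are 1 per gene and library. The narrowPeak columns deposited by the authors are a score, a fold enrichment (ratio) and −log10 p and q values for each summit, and summits of 1 interval were counted once.

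Positions were matched exactly by gene and position. Of 461 listed positions near a gene start, 211 showed the deposited motif at the stated place in RefSeq (GRCm38.p6), and at most 10 did at any other shift tried, which set the counting of positions. The base after the motif is not in the lists, so the planned consensus share was replaced by that of GGAC. Of 577 member genes 575 had a symbol. A gene not listed in a chromatin RNA table was taken as 0. Log2 ratios used RPKM + 1 and a minimum of 1 RPKM in either library, which understates the change of low genes. Depth was estimated from the steps between low RPKM values and RefSeq gene lengths, and 57.0% of low values came within 0.05 of a whole read, so read numbers and their intervals are approximate. Genes were named by number of members (10), RNA level (10), the 5 highest and lowest ratios per cell type and membership of the lists (all m6A pathway genes, up to 4 of each other list). By the same rule sequences of the leading genes were to be shown, but none could be read. Scripts were tested on simulated data. Tools were Python 3.11.15, pandas 2.3.3, NumPy 2.4.6, SciPy 1.17.1 and matplotlib 3.10.9. ATAC libraries with the same number in KO and WT were checked for pairing, with correlations of their deviations of -0.48 in ESCs and -0.32 in CM over 3 pairs, and were not treated as pairs. The ATAC library CM KO replicate 3 is labelled as RNA but holds peaks and was used.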

Additional observations from a re-analysis of the deposited data

Results flagged for a closer look

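The following member genes had KO to WT ratios of chromatin RNA that went opposite ways in ESCs and in CM. Each counting interval excluded 1 and the median of all genes. That median came from log2 ratios with 1 RPKM added, while the ratios here are plain, so they are not like for like. With 1 RPKM added, the log2 ratio of Tet1 in CM was 0.138, against a median of 0.127 over all genes. With 1 library a group the difference between cell types was not tested. Other RefSeq genes overlap each of the genes named here, and their reads cannot be told apart. The CM ratio of Malat1 was 0.864 (0.857 to 0.870) and its ESC ratio 1.49 (1.48 to 1.50). The CM ratio of Ppan was 0.682 (0.663 to 0.701) and its ESC ratio 1.10 (1.08 to 1.13). For Tet1 the CM ratio was 1.17 (1.12 to 1.22) and the ESC ratio 0.738 (0.725 to 0.752). For Aff4 they were 1.21 (1.17 to 1.25) and 0.775 (0.749 to 0.802). For Ahctf1 they were 1.35 (1.30 to 1.41) and 0.895 (0.862 to 0.929), and its ESC ratio became 1.02 when libraries were scaled to equal medians.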

How the results depend on the processing

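The number of members depended on how positions were matched. It was 658 when positions of a gene within 10 bases counted as the same, 444 within 50 bases, 209 within 200 bases (165 of them among the 713) and 13 when whole genes were matched, and 721 with repeated lines kept. Leaving 1 list at a time out of the rule, chosen after seeing the data, gave 1419 positions without ESC WT, 1921 without CM WT, 3529 without ESC KO and 6092 without CM KO. The GGAC share stayed within its interval, at 26.1% to 27.0%, in the 3 alternatives run. The member genes' median log2 ratio in ESCs was -0.089 with a pseudocount of 0.1, -0.10 in the 11 genes that passed with no ESC WT position, -0.0076 in genes with a member beyond 200 bases (added after seeing the data) and reversed to 0.074 when libraries were scaled to equal medians. In CM it was 0.26 with a pseudocount of 0.1, 0.14 with no filter, 0.15 after scaling, 0.20 in the 8 genes with no CM WT position and 0.20 in genes with a member beyond 200 bases (added after seeing the data). For the changes in the values of this paragraph the cause was not tested, apart from the fewer genes that some alternatives hold. In ATAC-seq the difference kept its sign in all alternatives. Without 1 library at a time it ranged from 0.0198 to 0.0424 percentage points in ESCs and from 0.222 to 0.254 in CM. With the replicate block it was 0.0302 and 0.243, each at p = 0.25 by exact permutation within pairs, the smallest p that 3 pairs allow. With at least 50% of an interval inside the gene it was 0.0351 (p = 0.3) and 0.203 (p = 0.1), by exact permutation. An equal number of intervals gave 0.0703 in ESCs. The alternatives for a higher-scoring part of each list, for the full consensus and for intervals near a position were not run, because the lists hold no score, no base after the motif and no genome coordinates.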
